A study of Mus musculus with 8 samples.

Results

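The expression of 9 genes of cell-to-cell contact was followed through ovulation in mouse cumulus cells, the somatic cell layer around the oocyte: the connexins Gja1, Gja4, Gjc1 and Gjb2, the cadherins Cdh2 and Cdh11, the desmosome protein gene Dsp, the tight junction scaffold gene Tjp1 and the adhesion molecule gene Alcam. They were taken by exact match of the platform's gene symbol, which gave 12 probe sets for the 9 genes among 12422 probe sets for 8251 genes, with 2 probe sets each for Gja1, Dsp and Tjp1. All 12 were measured and none was removed by a filter. The arrays were Affymetrix mouse arrays of the type MG_U74Av2, and the values are log2 signals, so that a difference of 1 is a doubling.

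The cells came from EP2KO mice, which carry the Ptger2(-/-) genotype and so lack EP2, a receptor for prostaglandin E2, and from wild-type (WT) mice. Both were females of the C57Bl/6 strain, 3 to 4 weeks old. All received 5 IU of pregnant mare serum gonadotropin (PMSG), which stands in for FSH and grows the follicles, and 48 h later 5 IU of human chorionic gonadotropin (hCG), which stands in for the LH surge. The 0 h group was taken 48 h after PMSG with no hCG, and the others 3, 9 and 14 h after hCG. There was 1 array per genotype and time, hence 4 EP2KO and 4 WT arrays. The labels do not say how many animals gave the cells of an array. At 0, 3 and 9 h the cells were stripped by hand from complexes released by puncture of ovarian follicles. At 14 h the complexes were collected from the oviduct and freed of cells with 0.1% hyaluronidase, so that ovulation and the way of collection cannot be told apart. In a bulk sample, fewer cells of a type and less RNA per cell cannot be told apart either.

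Gap junctions are channels built of connexins that join the cytoplasm of neighbouring cells. Gja1 encodes the main connexin between granulosa and cumulus cells, and Gja4 the connexin on the oocyte side of the contact with the cumulus layer. Cadherins hold cells together through calcium-dependent binding and are tied to actin by catenins, desmosomes tie intermediate filaments of neighbouring cells together through desmoplakin (Dsp), and Tjp1 is a scaffold under tight junctions that also binds connexins. After the ovulatory stimulus the cumulus layer spreads in a hyaluronan matrix and its cells lose their close contact with each other and with the oocyte.

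Across the 8 arrays the medians of all probe sets lay between 7.79 and 7.89. Their SD was 1.84 in EP2KO and 1.77 in WT at 0 h, and 1.96 and 1.99 at 3 h. The deposited values thus did not share a common distribution, which bears on the 3 h changes. Ptger2, the targeted gene, read 4.57, 4.24, 4.69 and 4.51 in EP2KO at 0, 3, 9 and 14 h, against 4.95, 5.97, 5.37 and 5.33 in WT, and was lower in EP2KO at each of the 4 times. Of 10 cumulus and granulosa markers 7 were measured, and Inha, the inhibin alpha subunit, was the highest of them at 12.34 to 14.37 in EP2KO and 12.70 to 14.22 in WT. The difference between the 3' and 5' Gapdh control probe sets, which grows as the labelled product gets shorter, was 2.82 in EP2KO and 2.87 in WT at 14 h, against 0.96 to 1.48 in EP2KO and 0.80 to 1.86 in WT at the earlier times.

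The connexin genes moved little, apart from the second Gja1 probe set, which was higher at 3 and 9 h. The leading one stayed among the highest signals of the array at every time. Gja4 was lower at 3 h, and Gjc1 and Gjb2 had no call. The leading Gja1 probe set, the higher of its pair, read 13.33, 13.43, 13.47 and 13.28 in EP2KO at 0, 3, 9 and 14 h and 13.42, 13.39, 13.57 and 13.51 in WT. These 8 values span 0.29, the times overlap, and the probe set stood at the 99.8th percentile of mean signal, where an array may respond less than in proportion. Its change was 0.03 ± 0.119 at 3 h, 0.15 ± 0.119 at 9 h and 0.02 ± 0.119 at 14 h, each over 0 h (SE, with n = 2 arrays at each time; adjusted p from limma 0.827, 0.416 and 0.923). Under quantile normalization the 3 h change was −0.40 with adjusted p = 0.0252, so that even its direction rests on the scaling there. The second Gja1 probe set read 9.90, 10.34, 10.70 and 10.04 in EP2KO and 9.71, 10.55, 10.28 and 10.60 in WT, so that both 0 h arrays lay below the other 6. It rose by 0.64 ± 0.2 at 3 h (adjusted p = 0.0272), a 1.56-fold increase, and by 0.68 ± 0.2 at 9 h (adjusted p = 0.0325), a 1.61-fold increase, and stood 0.51 ± 0.2 above 0 h at 14 h (adjusted p = 0.0815). Both probe sets were designed on the same mouse sequence entry. The suffixes f and r are Affymetrix marks for a probe set whose probes may match a family of sequences and for one in which a design rule was relaxed. Over the 8 arrays the pair correlated with r = 0.48, as a description. The 3 h call ended without the EP2KO 0 h array (0.79, adjusted p = 0.0514), without the WT 0 h array (0.49, adjusted p = 0.237) and without the WT 3 h array (0.53, adjusted p = 0.190), and under quantile normalization (0.39, adjusted p = 0.117). The 9 h call ended without the EP2KO 0 h array (0.84, adjusted p = 0.0723), the WT 0 h array (0.53, adjusted p = 0.274) and the EP2KO 9 h array (0.38, adjusted p = 0.360). The 14 h difference passed without the EP2KO 14 h array (0.86, adjusted p = 0.0107) and without either 9 h array (0.51, adjusted p = 0.0426).

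Gja4 was lower soon after hCG. It read 8.02, 7.65, 7.73 and 7.85 in EP2KO at 0, 3, 9 and 14 h and 8.25, 7.57, 7.86 and 7.68 in WT, with both 0 h values above the other 6. It fell by 0.52 on the log2 scale at 3 h (SE 0.132; adjusted p = 0.0109), or to 0.695 of its 0 h level, while 9 h stood at −0.34 and 14 h at −0.37 against 0 h without passing (adjusted p = 0.0907 and 0.060). The median change of all probe sets at 3 h was −0.135, and relative to it Gja4 stood at −0.39. The 3 h call ended without the WT 0 h array (−0.39, adjusted p = 0.125) and without the WT 3 h array (−0.45, adjusted p = 0.0975). Markers of the oocyte, where Gja4 is known to act, had a summed log2 signal of 11.46 at 3 h and 11.32 at 0 h in EP2KO, and of 11.08 at 3 h and 11.61 at 0 h in WT. Of 14 measured oocyte markers 4 fell at 3 h and none rose, where 25.4% of all probe sets were lower, and under quantile normalization 3 were lower and 1 higher. Endothelial cells also use Gja4, and their 9 measured markers summed to 10.87 at 3 h and 10.91 at 0 h in EP2KO, and to 10.80 and 11.05 in WT. The part of these cells in the Gja4 result was not tested.

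The other connexins of the set were flat. Gjc1 read 7.31 to 7.42 in EP2KO and 7.27 to 7.39 in WT over the 4 times, and no time contrast moved it by more than 0.04. Gjb2, known for its role in epithelia and the inner ear, read 7.12 to 7.16 in EP2KO and 7.14 to 7.56 in WT, and only the WT 3 h array, at 7.56, stood off the rest. Its 3 h change of 0.22 ± 0.133 did not pass (adjusted p = 0.192) and passed without the EP2KO 3 h array (0.42, adjusted p = 0.0479). Signals of this size lay at the 38.8th percentile of all probe sets for Gjc1 and the 36.3rd for Gjb2. Detection calls were not used here, so the flat values may lie near background.

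**Figure D1:**
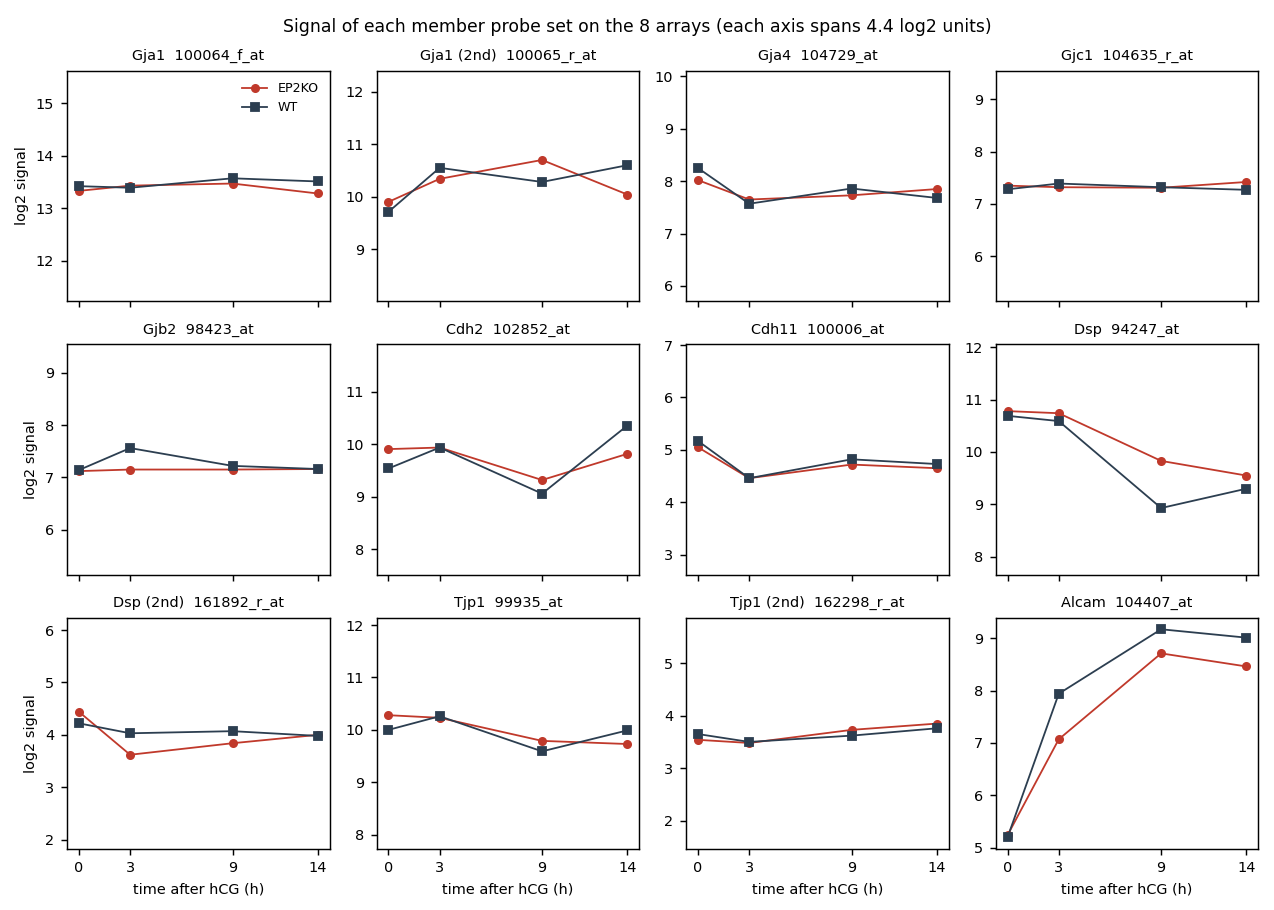
Log2 signal (vertical axes, each spanning the same length) of the 12 member probe sets against time after hCG in hours, with 1 point per array, circles for EP2KO and squares for WT; "2nd" marks the probe set of a gene with the lower mean. Alcam spans 5.20 to 9.17, lowest at 0 h in both genotypes, the leading Dsp probe set lies lower at 9 and 14 h than at 0 and 3 h, and the leading Gja1 probe set stays within 0.29.

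Cdh2, the gene of N-cadherin, dipped late before ovulation and was higher again in ovulated cells. It read 9.91, 9.94, 9.32 and 9.82 in EP2KO at 0, 3, 9 and 14 h and 9.54, 9.94, 9.06 and 10.36 in WT, so that both 9 h arrays were the lowest. It fell by 0.75 on the log2 scale between 3 and 9 h (SE 0.191; adjusted p = 0.0222) and rose by 0.90 ± 0.191 between 9 and 14 h (adjusted p = 0.007), a 1.87-fold increase. Against 0 h it stood at 0.22 at 3 h, −0.53 at 9 h and 0.36 at 14 h, and none of the 3 passed (adjusted p = 0.378, 0.0695 and 0.189). The 9 h difference passed in 4 of 14 alternatives, among them quantile normalization (−0.62, adjusted p = 0.0327), and the 14 h difference without the EP2KO 14 h array (0.74, adjusted p = 0.0104). Between 9 and 14 h it changed by 0.50 in the EP2KO arrays and by 1.30 in the WT arrays, and 14 h over 0 h was −0.09 in EP2KO and 0.82 in WT. The rise after 9 h missed the threshold without the WT 9 h array (0.74, adjusted p = 0.0601), without the WT 14 h array (0.52, adjusted p = 0.0656) and with only the 4 arrays of 9 and 14 h (0.90, adjusted p = 0.137). The fall from 3 h missed it without the EP2KO 3 h array (−0.77, adjusted p = 0.0634), the WT 3 h array (−0.73, adjusted p = 0.149) or the WT 9 h array (−0.59, adjusted p = 0.234). At 14 h the arrays also had the largest 3' to 5' Gapdh difference and a higher sum of oviduct epithelial markers. The part of either in the Cdh2 level was not tested.

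Cdh11, a cadherin of mesenchymal cells, was low throughout and lower after hCG. It read 5.05, 4.46, 4.72 and 4.65 in EP2KO and 5.17, 4.46, 4.82 and 4.73 in WT, with the 2 arrays of 3 h the lowest and those of 0 h the highest. It fell by 0.65 on the log2 scale at 3 h (SE 0.113; adjusted p = 0.00192), which is −0.52 relative to the median change of all probe sets. At 14 h it had fallen by 0.42 (SE 0.113; adjusted p = 0.0181), and 9 h stood at −0.34 (adjusted p = 0.0538). The 3 h call held in each of the alternatives run on it, with adjusted p from 8.4e-04 to 0.0278, while the 14 h call ended without the EP2KO or WT array of 0 h and without the EP2KO or WT array of 14 h (adjusted p = 0.0582 to 0.103), and with only the 4 arrays of 0 and 14 h (adjusted p = 0.0707). The 9 h difference passed in 3 of 13 alternatives (adjusted p = 0.031 to 0.0486). Its mean signal lay at the 6.07th percentile of all probe sets, so these differences may be damped by background. Over the alternatives that left out no single array, the 3 h change lay between −0.65 and −0.42. Values were also spread most widely on the 3 h arrays, and the part of this in the Cdh11 change was not tested. Of 10 theca and stroma markers, a source of Cdh11 in the ovary, 4 fell at 3 h and none rose, where 25.4% of all probe sets were lower. Under quantile normalization 3 of these markers fell. Their summed log2 signal was 11.40 at 3 h and 11.78 at 0 h in EP2KO and 11.31 and 11.96 in WT. The part of such cells in the Cdh11 result was not tested.

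The desmosome gene Dsp fell late. Its leading probe set read 10.78, 10.74, 9.83 and 9.55 in EP2KO at 0, 3, 9 and 14 h and 10.69, 10.59, 8.93 and 9.30 in WT. The 4 arrays of 9 and 14 h all lay below the 4 arrays of 0 and 3 h. It was near its 0 h level at 3 h, with a change of −0.07 ± 0.181 (adjusted p = 0.771). It fell by 1.36 at 9 h (SE 0.181; adjusted p = 5.58e-04) and by 1.31 at 14 h (SE 0.181; adjusted p = 3.54e-04), which leaves 0.391 and 0.403 of the 0 h level. The step lay between 3 and 9 h (−1.28 ± 0.181, adjusted p = 0.0014), and 14 h over 9 h was 0.05 ± 0.181 (adjusted p = 0.918). These 3 calls held in each of the 14 alternatives run on each. Their size was smaller with both Dsp probe sets averaged, at −0.87 for 9 h, −0.82 for 14 h and −0.58 for the step from 3 to 9 h. Of 7 measured cumulus and granulosa markers 6 fell at 9 h and 6 at 14 h over 0 h, where 12.1% and 15.2% of all probe sets were lower. Their summed log2 signal was 14.59 at 9 h and 13.63 at 14 h in EP2KO and 14.41 and 13.87 in WT, against 15.47 in EP2KO and 15.31 in WT at 0 h. Their part in the Dsp fall was not tested. The other Dsp probe set read 3.62 to 4.44 in EP2KO and 3.98 to 4.22 in WT, at the 1.71st percentile of all probe sets, and gave a different course. It fell by 0.50 at 3 h (SE 0.154; adjusted p = 0.0246), and was −0.37 at 9 h and −0.34 at 14 h without passing. That 3 h call ended without the EP2KO 0 h array (−0.29, adjusted p = 0.206) and without the EP2KO 3 h array (−0.30, adjusted p = 0.193), with the arrays centred on their medians (−0.43, adjusted p = 0.063), under quantile normalization (−0.33, adjusted p = 0.134) and with only the 4 arrays of 0 and 3 h (−0.50, adjusted p = 0.0848).

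Tjp1 moved little. Its leading probe set read 10.28, 10.23, 9.79 and 9.73 in EP2KO at 0, 3, 9 and 14 h and 10.00, 10.26, 9.59 and 9.99 in WT. In WT the 9 h array was the lowest, whereas in EP2KO the arrays of 9 and 14 h were both low. It fell by 0.45 at 9 h over 0 h (SE 0.145; adjusted p = 0.0483) and by 0.56 from 3 to 9 h (SE 0.145; adjusted p = 0.0247), and 14 h over 0 h was −0.28 ± 0.145 (adjusted p = 0.185). The 9 h call was kept in 5 of 14 alternatives, with adjusted p from 0.0124 to 0.331 over the 14. It ended without any 1 of the 6 arrays of 0, 3 and 9 h. The step from 3 h ended without either 3 h or either 9 h array (adjusted p = 0.0514 to 0.292), under quantile normalization (−0.39, adjusted p = 0.0584) and with both probe sets averaged (−0.18, adjusted p = 0.257). The 14 h difference passed under quantile normalization (−0.39, adjusted p = 0.039). The other Tjp1 probe set read 3.48 to 3.85 in EP2KO and 3.50 to 3.76 in WT and passed in no contrast. Its signal lay at the 0.25th percentile of all probe sets, near the floor of the array, and over the 8 arrays it correlated with the leading one at r = −0.70.

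Alcam had the largest change of the members, and it rose in steps. It encodes a membrane protein of the immunoglobulin type that binds itself and CD6 on other cells. It read 5.24, 7.07, 8.71 and 8.46 in EP2KO at 0, 3, 9 and 14 h and 5.20, 7.94, 9.17 and 9.01 in WT. Within each genotype the order was 0 h, 3 h, 14 h and 9 h from low to high, and the arrays of 0 h, of 3 h and of the 2 later times did not overlap between these 3 steps. Over 0 h it rose by 2.28 ± 0.182 at 3 h (adjusted p = 3.45e-05), a 4.87-fold increase, by 3.72 ± 0.182 at 9 h, a 13.2-fold increase, and by 3.52 ± 0.182 at 14 h (adjusted p = 6.02e-07), an 11.4-fold increase. The further step from 3 to 9 h was 1.44 ± 0.182 (adjusted p = 8.79e-04), and the difference of 14 h over 9 h was −0.21 ± 0.182 (adjusted p = 0.533), so these neighbours in the order did not differ beyond their spread. The rises at 3, 9 and 14 h were called in each of 14 alternatives.

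The stretches before the transcription start of Alcam, Dsp and Gja1, the members with the largest rise and fall and the main cumulus connexin, are given below as RefSeq lists them on GRCm38.p6. They run 5′ to 3′ on the gene's strand and hold the 250 bases before the start. Capitals mark matches, on either strand, to the AP-1 letters TGANTCA or the GC box letters GGGCGG.
Alcam (chr16:52453082-52453331, minus strand): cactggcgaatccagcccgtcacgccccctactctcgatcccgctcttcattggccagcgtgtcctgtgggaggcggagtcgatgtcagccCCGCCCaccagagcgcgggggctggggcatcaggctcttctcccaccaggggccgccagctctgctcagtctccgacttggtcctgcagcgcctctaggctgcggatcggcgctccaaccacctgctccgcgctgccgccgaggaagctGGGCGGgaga
Dsp (chr13:38151044-38151293, plus strand): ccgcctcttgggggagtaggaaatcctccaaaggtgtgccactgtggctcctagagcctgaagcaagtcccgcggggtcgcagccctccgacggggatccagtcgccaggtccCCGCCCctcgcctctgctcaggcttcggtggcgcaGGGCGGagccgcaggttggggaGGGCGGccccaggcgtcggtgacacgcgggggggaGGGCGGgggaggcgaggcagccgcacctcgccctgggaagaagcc
Gja1 (chr10:56377050-56377299, plus strand): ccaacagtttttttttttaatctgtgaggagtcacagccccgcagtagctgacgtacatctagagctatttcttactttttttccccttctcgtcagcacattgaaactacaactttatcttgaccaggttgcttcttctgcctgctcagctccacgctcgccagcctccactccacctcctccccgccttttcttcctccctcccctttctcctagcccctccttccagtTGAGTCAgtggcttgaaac
The Gja1 stretch held 1 AP-1 match, whose first base lies at −19 from the start, and no GC box. The Alcam stretch held 2 GC boxes at −159 and −10, and that of Dsp held 4 at −137, −102, −80 and −45, with no AP-1 match in either. The cAMP response element letters TGACGTCA were in none of the 3. Of 32851 promoters in the table, 6.75% held the AP-1 letters in the same window, 32.7% the GC box and 1.55% the cAMP response element. A match describes letters only. Promoters of 6 of the 9 genes were found in the table, namely these 3 and those of Gja4, Gjb2 and Tjp1.

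**Figure D2:**
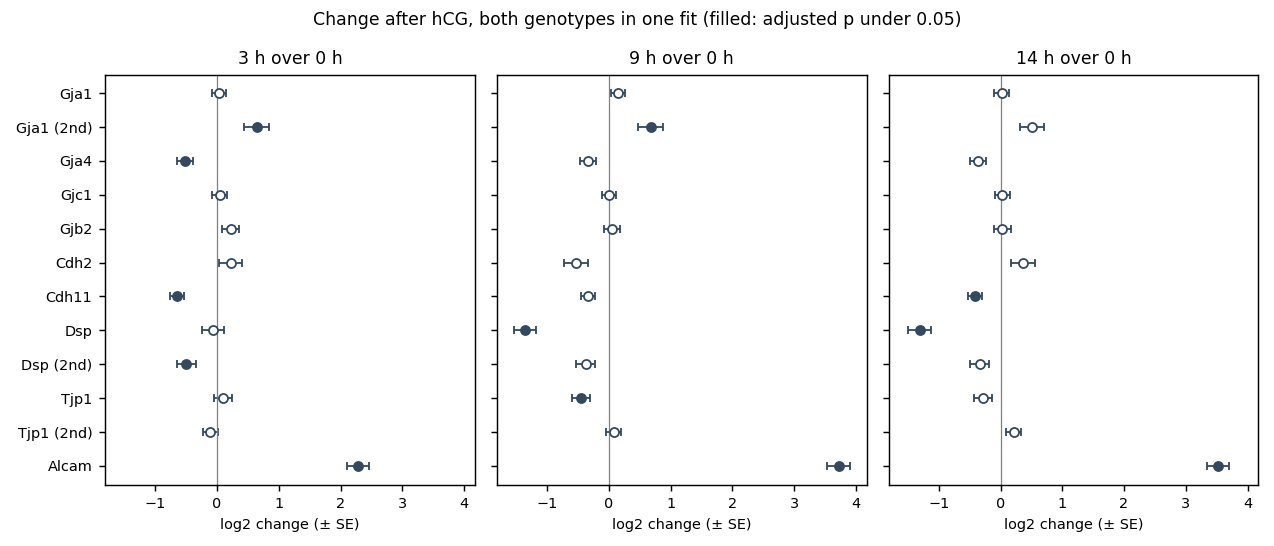
Log2 change over 0 h (horizontal axes) with its SE for the 12 member probe sets at 3, 9 and 14 h, from the fit over both genotypes (n = 2 arrays per time); filled points have an adjusted p under 0.05. Alcam stands at 2.28, 3.72 and 3.52, Dsp at −0.07, −1.36 and −1.31, and the leading Gja1 probe set near 0 as deposited, though at −0.40 at 3 h under quantile normalization.

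Counted together, the members changed about as often as any probe sets. At 3 h over 0 h 2 of 12 were higher, against 17.4% of all probe sets, and 3 were lower, against 25.4%. At 9 h 2 were higher and 2 lower, against 10.9% and 12.1%, and at 14 h 1 was higher and 2 lower, against 13.5% and 15.2%. From 3 to 9 h 1 was higher and 3 lower, against 7.59% and 11.8%, and from 9 to 14 h 1 was higher and 0 lower, against 10.0% and 10.1%. The median change of the 12 was 0.04 at 3 h, −0.17 at 9 h and 0.02 at 14 h, beside −0.135, −0.08 and −0.06 for all probe sets. With the arrays centred on their medians, the 3 h split of all probe sets was 2394 higher and 2111 lower, beside 2161 and 3152 as deposited, and that of the members 2 and 2. From 3 to 9 h it was 692 higher and 1530 lower, beside 943 and 1469.

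The comparison of EP2KO with WT asks whether the contact genes depend on the prostaglandin E2 receptor. Over the 4 times no member passed, nor did any of the 12422 probe sets (limma, 0.00% called, 5.17% at an unadjusted p under 0.05). Alcam had the largest difference of the members, −0.46 ± 0.129 (SE, n = 4 arrays per genotype; adjusted p = 0.870, unadjusted p = 0.0049), and the leading Dsp probe set the next, 0.35 ± 0.128 (adjusted p = 0.939, unadjusted p = 0.0215). Alcam was level at 0 h, with a difference of 0.04, and EP2KO was lower by 0.87, 0.46 and 0.55 on the log2 scale at 3, 9 and 14 h. At those times 0.604%, 0.95% and 1.7% of all probe sets had a lower difference. The leading Dsp probe set was higher in EP2KO at all 4 times, by 0.09, 0.15, 0.90 and 0.25, and at 9 h only 8 of 12422 probe sets had a larger positive difference. The second Dsp probe set did not share this course, with differences of 0.22, −0.41, −0.23 and 0.02. No test was made of these single times, where each genotype has 1 array, and none of the members reached a log2 difference of 1, against 0.0403%, 0.467%, 0.129% and 0.217% of all probe sets at 0, 3, 9 and 14 h.

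The haemoglobin genes among the markers of blood also differed between the arrays of the 2 genotypes at 3 and 9 h. The 4 measured erythroid markers had a summed log2 signal of 10.96, 11.49, 11.40 and 11.80 in EP2KO at 0, 3, 9 and 14 h, against 10.64, 12.51, 13.62 and 11.65 in WT. The haemoglobin gene Hba-a1 read 10.94 in EP2KO and 13.39 in WT at 9 h. The part of blood cells in the Alcam and Dsp differences was not tested.

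At 14 h the genotype difference of each member was set against its mean at the earlier times. Cdh2 departed by −0.75 ± 0.215 (limma, adjusted p = 0.440, unadjusted p = 0.00561) and the second Gja1 probe set by −0.69 ± 0.251 (adjusted p = 0.595, unadjusted p = 0.0199). Both were lower in EP2KO at 14 h, by 0.54 for Cdh2 and 0.56 for Gja1, after differences of 0.37, 0.00 and 0.26 for Cdh2 and of 0.19, −0.21 and 0.42 for Gja1 at 0, 3 and 9 h. The leading Gja1 probe set was lower by 0.23 in EP2KO at 14 h and departed by −0.18 ± 0.196 (adjusted p = 0.959). No member passed this test, which called 0.0805% of all probe sets and gave an unadjusted p under 0.05 to 6.96% of them. There is 1 array per genotype at 14 h, and the median SE of this test over all probe sets was 0.208. The 14 h arrays also differed in markers of other cells. The summed log2 signal of oviduct epithelial markers was 12.65 in EP2KO and 12.39 in WT, and that of leukocyte markers 12.33 and 11.94. The part of such cells in these departures was not tested.

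**Figure D3:**
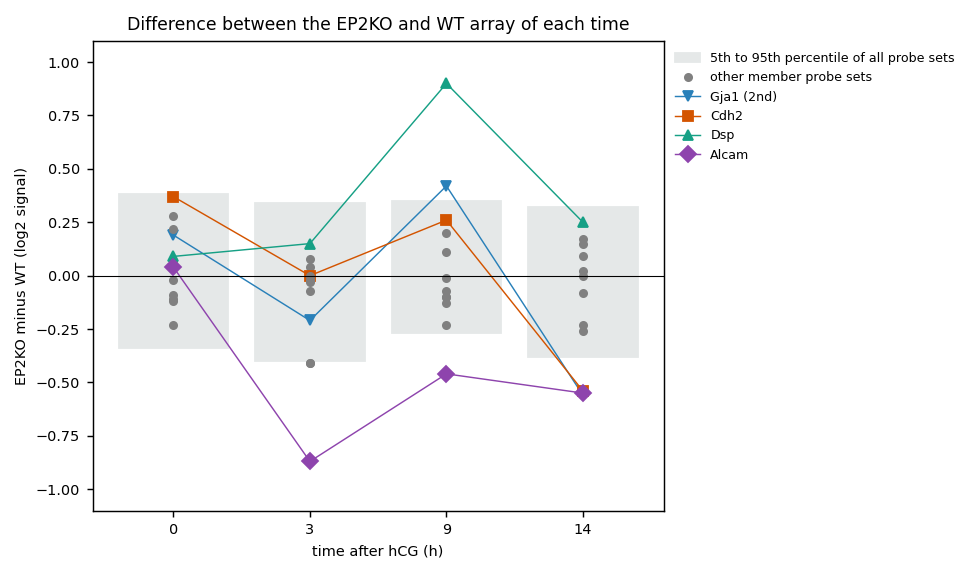
Difference of log2 signal, EP2KO minus WT (vertical axis), at each time after hCG in hours, with 1 value per member probe set; the grey boxes run from the 5th to the 95th percentile of all 12422 probe sets. Alcam lies below the box at 3, 9 and 14 h, Dsp (its leading probe set) and the second Gja1 probe set above it at 9 h, and Cdh2 and the second Gja1 probe set below it at 14 h; Gjb2 and the second Dsp probe set, both at −0.41, lie just below it at 3 h.

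The remaining genes of each kind of contact put the 9 members in context. Their lists were drawn up from general knowledge of the junctions, a gene with several probe sets is given by the brightest, and the counts are to be read beside the shares of all probe sets given above. Of the 7 other connexins measured, Gja3, Gja5, Gja10, Gjb1, Gjb5, Gjb6 and Gjd2, none changed at 14 h over 0 h, and their median was 0.02. The only calls of this list were Gjb5, which fell by 0.42 at 3 h (SE 0.142; adjusted p = 0.0369), and Gjb1, which rose by 0.44 ± 0.134 from 3 to 9 h (adjusted p = 0.0444). Both calls ended under median centring and under quantile normalization.

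Of 18 other cadherins, catenins and nectins, 4 rose at 14 h and none fell, with 3 rises left under quantile normalization. Cdh5, the cadherin of endothelium, rose by 1.55 ± 0.184 (adjusted p = 1.31e-04). It read 6.57, 6.29, 7.79 and 7.75 in EP2KO at 0, 3, 9 and 14 h and 6.64, 6.40, 8.47 and 8.56 in WT, with the 4 later arrays above the 4 earlier ones. Cdh5 had already risen by 1.52 at 9 h over 0 h, where Eng, another endothelial marker, rose by 0.50 ± 0.129 (adjusted p = 0.0198), under both other scalings too. Tek, also an endothelial marker, fell by 0.49 at 9 h (SE 0.153; adjusted p = 0.0422), a call that ended under both other scalings. The remaining 6 endothelial markers had no call at 9 h. At 14 h over 0 h Eng stood at −0.32 (adjusted p = 0.0891), Tek fell by 0.45, a call that ended under both other scalings, and the remaining 6 endothelial markers did not pass. The part of endothelial cells in the Cdh5 result was not tested. Nectin3 and Nectin2, adhesion molecules that work with cadherins, rose by 0.88 ± 0.121 and 0.75 ± 0.112 at 14 h. At 3 h the list held 7 genes that fell, the catenins Ctnnd1 (−0.60) and Ctnnd2 (−0.70) among them, and 2 that rose, and with the arrays centred on their medians the 7 falls became 4.

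Of 11 other desmosome genes, 1 rose and 1 fell at 14 h. Perp, a membrane protein of desmosomes, fell by 2.02 at 14 h (SE 0.204; adjusted p = 4.37e-05). It read 8.15, 7.97, 6.66 and 6.10 in EP2KO and 7.88, 8.58, 6.32 and 5.88 in WT, so that, as for Dsp, the 4 arrays of 9 and 14 h lay below the 4 earlier ones. Pkp2, a plakophilin that binds desmoplakin, rose by 1.08 ± 0.166 (adjusted p = 6.98e-04), with 9.10, 9.65, 10.20 and 10.17 in EP2KO and 9.01, 10.16, 10.64 and 10.10 in WT. The other 9, among them the desmosomal cadherins Dsg2, Dsc1, Dsc2 and Dsc3, did not pass at 14 h.

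Of 20 other tight junction genes, 1 rose and 1 fell at 14 h. F11r, the junctional adhesion molecule A gene, rose by 2.96 ± 0.148 (adjusted p = 5.33e-07), a 7.75-fold increase, with 8.54, 7.74, 9.33 and 11.50 in EP2KO and 8.30, 8.01, 9.41 and 11.25 in WT. Both 14 h arrays stood well above the rest, and the step from 9 to 14 h was 2.0 ± 0.148 (adjusted p = 1.53e-05). Cldn1, a claudin, fell by 0.39 (SE 0.119; adjusted p = 0.0319), and this call ended under quantile normalization. At 3 h 8 of the 20 fell and 1 rose, with 5 falls left under either other scaling.

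Of 21 other adhesion genes of the immunoglobulin type or related to them, the class of Alcam, 5 rose at 14 h and none fell. Emb, embigin, rose by 2.58 ± 0.146, with 8.13, 8.01, 9.10 and 10.42 in EP2KO and 8.02, 8.28, 9.21 and 10.89 in WT. Cd47, a ligand of signal regulatory protein on phagocytes, rose by 2.10 ± 0.167, with 10.06, 10.28, 11.76 and 11.83 in EP2KO and 9.70, 10.28, 12.10 and 12.13 in WT. Nrcam rose by 1.30 ± 0.153 (adjusted p = 1.19e-04). Unlike Alcam, both Emb and Cd47 showed no call at 3 h and rose at 9 h, by 1.08 and 2.05.

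Of 15 kinases and partners of the Gja1 protein, 5 rose and 3 fell at 14 h. Cav1, caveolin, rose by 3.90 ± 0.147 (adjusted p = 1.17e-07), Prkca, a protein kinase C that phosphorylates the Gja1 protein, by 1.52 ± 0.165 and Ezr, ezrin, by 1.08 ± 0.212. Cav1 climbed at each step, with 7.0, 7.69, 9.18 and 11.21 in EP2KO and 7.62, 8.0, 9.50 and 11.22 in WT. The falls were Cdk1, the mitotic kinase, by 1.96 (SE 0.166), Csnk1e, a casein kinase, by 0.91 (SE 0.203), and Prkacb, a catalytic subunit of protein kinase A, by 0.48 (SE 0.151). The Prkacb call ended under median centring, and under quantile normalization 4 rises and 3 falls were called. Protein phosphorylation was not measured.

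**Figure D4:**
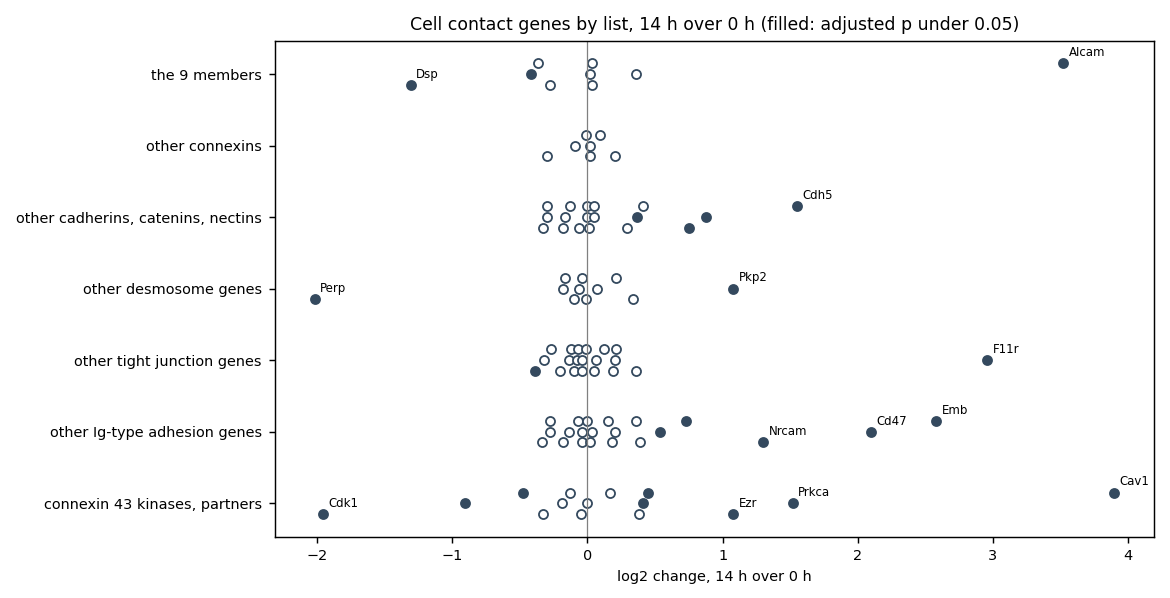
Log2 change at 14 h over 0 h (horizontal axis) of the 9 members, by their leading probe sets, and of the genes in 6 related lists, 1 point per gene, filled where the adjusted p is under 0.05; names are given for calls of at least 1. The other connexins all lie near 0 with no call, and Alcam (3.52), F11r (2.96), Emb (2.58) and Cav1 (3.90) stand to the right of their lists.

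Several of these genes are also made by epithelium, and the 14 h cells came from the oviduct. Of 13 oviduct epithelial markers, 4 rose and 1 fell at 14 h over 0 h, where 13.5% of all probe sets were higher and 15.2% lower. Their summed log2 signal was 11.44 to 11.56 in EP2KO and 11.48 to 11.62 in WT at 0, 3 and 9 h, and at 14 h it was 12.65 in EP2KO and 12.39 in WT. Ovgp1, the oviduct glycoprotein gene, read 11.46 in EP2KO and 11.13 in WT at 14 h, against 7.20 to 7.54 in EP2KO and 7.05 to 7.76 in WT at the earlier times. The sum adds linear signals, so that Ovgp1, the brightest of the list at 14 h, weighs most in it there. Krt18 read 8.79 in EP2KO and 7.22 in WT at 14 h, against 6.51 to 6.77 in EP2KO and 6.49 to 7.25 in WT earlier. Krt19 read 7.13 and 6.93 at 14 h, against 6.14 to 6.41 in EP2KO and 6.42 to 6.47 in WT earlier. Krt8 read 10.33 and 9.96 at 14 h, against 9.58 to 10.16 in EP2KO and 9.50 to 10.23 in WT earlier. Foxj1 read 8.36 in EP2KO and 8.39 in WT at 14 h, against 8.32 to 8.73 and 8.30 to 8.85 earlier. Cldn3 read 6.43 and 6.26 at 14 h, against 6.40 to 6.61 in EP2KO and 6.20 to 6.53 in WT earlier. The epithelial cadherin Cdh1 read 9.13 in EP2KO and 9.36 in WT at 14 h, against 8.89 to 9.13 in EP2KO and 8.79 to 9.37 in WT earlier, and did not pass at 14 h. Of 16 leukocyte markers 8 rose at 14 h and none fell, beside the same shares of all probe sets. Their summed log2 signal at 14 h was 12.33 in EP2KO and 11.94 in WT, against 11.19 to 11.49 and 11.15 to 11.64 earlier. The part of oviduct cells or leukocytes in the 14 h levels was not tested.

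**Figure D5:**
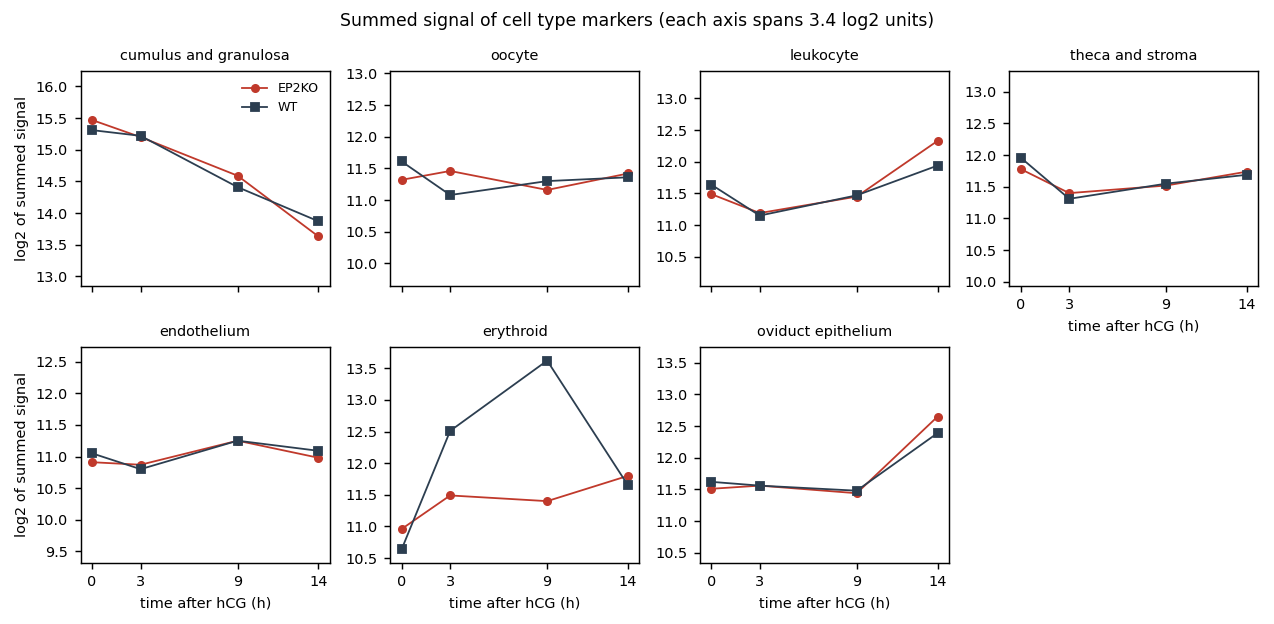
Log2 of the summed linear signal of 7 cell type marker lists (vertical axes, each spanning the same length) against time after hCG in hours, circles for EP2KO and squares for WT, 1 point per array. The oviduct and leukocyte sums are highest at 14 h in both genotypes, the erythroid sum is highest in WT at 9 h, the oocyte sum stays between 11.08 and 11.61, and the cumulus and granulosa sum falls to 13.63 in EP2KO and 13.87 in WT at 14 h.

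The genes whose course over the 8 arrays was most like that of a member were sought among 1426 probe sets with 1 symbol and an SD of at least 0.5. For Alcam they were Sdc1, a cell surface proteoglycan (r = 0.996), Vcan, the hyaluronan-binding proteoglycan versican (r = 0.991), Cd63, a tetraspanin (r = 0.991), Adarb1, an RNA-editing enzyme (r = 0.990), and Spred2, an inhibitor of MAP kinase signalling (r = 0.984). Sdc1 read 7.54, 8.79, 10.09 and 9.72 in EP2KO and 7.62, 9.52, 10.14 and 10.01 in WT, with no test made at single times. It was picked for its likeness to Alcam on these same arrays. Its lower EP2KO values at 3, 9 and 14 h are thus no separate evidence on the Alcam difference. For the leading Gja1 probe set the 5 were Sc5d, an enzyme of cholesterol synthesis, Macroh2a1, Kazald1, Atf2 and H2az1, with r from 0.737 to 0.795. That probe set spans only 0.29 over the arrays, so the likeness describes small movements. All points share the same 8 arrays and no p is given.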

How the data were processed

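Cumulus cell RNA of 8 samples was hybridised to MG_U74Av2 arrays, after 2 rounds of amplification from 100 ng per the labels' protocols, which name only the WT RNA at this step. The authors deposited 1 log2 signal per probe set with 2 decimals, made with RMA per the submitters' processing notes, with no version stated there. These log2 values were used as deposited. Of 12488 probe sets 66 Affymetrix controls were left out, and dim probe sets were kept. Symbols come from the platform annotation, and 10817 of 10833 single symbols matched a gene ID in RefSeq on GRCm38.p6, whose symbols were used for the lists.

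Time contrasts and EP2KO over WT came from limma 3.58.1 in R 4.3.3 (lmFit with time and genotype, eBayes; 3 residual and 7.244 prior degrees of freedom). The departure at 14 h added genotype by ovulated stage (2 residual degrees of freedom). P-values are two-sided, Benjamini-Hochberg adjusted over 12422 probe sets, with a threshold of 0.05 for rose and fell. The SE and p-values rest on the residual spread of these fits, and no genotype and time had a repeat array. The residual thus holds spread between arrays, which may be technical in part, and any unfitted genotype difference in the time course. These parts cannot be told apart. The 2 arrays of a time are from EP2KO and WT and are not repeats of the same group. The number of arrays limits all precision. The fit was tested on simulated data.

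The members, lists and rules were chosen with earlier results of these data known. All member probe sets are named. In the lists up to 3 called rises and 3 falls of 14 h over 0 h were named, and for Gja1 and Alcam the 5 most similar genes by Pearson r. The genes named at other times or without a call were chosen after their values were seen. Alternatives were median centring, quantile normalization, leaving out the lowest 40% of probe sets, averaging a gene's probe sets, an eBayes trend, the 4 arrays of 2 times, and leaving out each array.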

Additional observations from a re-analysis of the deposited data

Results flagged for a closer look

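In 4 instances the EP2KO and WT arrays moved in opposite directions by at least 0.1 on the log2 scale between the same 2 times; with 1 array per genotype and time these differences were not tested. The second Gja1 probe set changed by 0.36 in EP2KO and −0.27 in WT from 3 to 9 h. From 9 to 14 h it changed by −0.66 in EP2KO and 0.32 in WT. Gja4 changed from 9 to 14 h by 0.12 in EP2KO and −0.18 in WT. The leading Dsp probe set changed from 9 to 14 h by −0.28 in EP2KO and 0.37 in WT, after the WT array had been the lower by 0.90 at 9 h.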

How the results depend on the processing

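The number of member probe sets called at 3 h over 0 h was 5, where 17.4% of all probe sets were higher and 25.4% lower. With the lowest 40% of probe sets left out it was 3 of the 7 member probe sets that stay, where 46.7% of all those kept were called. With a gene's probe sets averaged it was 3 of 9 genes, where 41.6% of all genes were called. It lay between 3 and 5 when single arrays were left out. In the same way the 4 calls at 9 h over 0 h became 2 to 5, the 4 from 3 to 9 h became 2 to 4, and the 1 from 9 to 14 h became 0 to 1, and 0 with only the 4 arrays of those times. The share of all probe sets called also varied widely when single arrays were left out, so these ranges are not particular to the members. With only the 4 arrays of 9 and 14 h, 5.63% of all probe sets were called from 9 to 14 h. With only the 4 arrays of 0 and 9 h, 2 member probe sets were higher and 4 lower at 9 h over 0 h, where 24.8% of all were called. At 14 h over 0 h 1 was higher and 2 were lower as deposited, where 13.5% and 15.2% of all probe sets were. The members counted 1 and 3 under quantile normalization, where 29.9% of all were called in either direction. They counted 1 and 1 with only the 4 arrays of those times, where 22.9% of all were called. The leading Gja1 probe set turned to −0.40 at 3 h under quantile normalization, where the cause was not tested. No member was called for EP2KO over WT or for the departure at 14 h under any alternative that could be fitted; the departure could not be fitted without either 14 h array. No paired analysis was possible because the labels give no link between animals of the 2 genotypes and each genotype and time has 1 array. Low signal limits Cdh11, the second probe sets of Dsp and Tjp1, and perhaps Gjc1 and Gjb2.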

Other observations

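Jam3, the junctional adhesion molecule C gene, had a passing peak, and it was chosen for mention after its values were seen. It read 7.55, 8.80, 8.92 and 7.68 in EP2KO at 0, 3, 9 and 14 h and 7.48, 9.20, 9.20 and 8.07 in WT, with the 4 arrays of 3 and 9 h above the other 4. It rose by 1.48 ± 0.14 at 3 h (SE, with n = 2 arrays at each time; adjusted p from limma 8.66e-05) and by 1.54 ± 0.14 at 9 h, and fell by 1.18 from 9 to 14 h (adjusted p = 2.13e-04). In the same cells F11r, its relative, fell by 0.55 at 3 h (adjusted p = 0.0154) and rose by 2.96 at 14 h over 0 h.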
